A study of Mus musculus with 18 samples.

Results

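Rab GTPases are small GTP-binding proteins of the Ras superfamily that sit on the surface of membranes and set their identity. A GEF (guanine nucleotide exchange factor) loads a Rab with GTP, the GTP-bound Rab recruits effectors that move, tether and fuse vesicles, a GAP (GTPase-activating protein) ends the signal, and GDI returns the GDP-bound protein to the cytosol. In macrophages these switches route Toll-like receptors, phagosomes, lysosomes and cytokine carriers, so they stand between the sensing of a stimulus and its delivery to the right compartment.

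Chromatin accessibility at Rab genes was followed in macrophages that met 1 stimulus or a pair of stimuli in succession, which addresses whether an earlier stimulus changes the chromatin found after a later one. The measured regions were stretches spanning 501 bases of the mouse genome (build mm10), and a region was counted as a Rab region when the nearest protein-coding gene, within 50 kb, had a symbol made of Rab, a number and at most 1 letter. This gave 198 of 53796 regions, at 52 of the 59 such genes in the reference. No region was assigned to Rab25, Rab27b, Rab34, Rab39b, Rab5b, Rab6a or Rab9b. Nearness does not show which gene a region acts on, and the reference gave gene ends and starts but no exons, so a region inside a gene is not placed in an exon or an intron here.

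All libraries came from wildtype C57BL/6 bone marrow-derived macrophages (BMDM), which are cultured macrophages grown from marrow of mice aged 6-12 weeks with M-CSF at 20 ng/mL and replated on day 7. Each culture had a first period of 4 h and a second of 4 h, and there were 2 libraries per group. The groups with a stimulus in each period were CL (CpG, then LPS), PL (polyI:C, then LPS), CT (CpG, then TNF) and PT (polyI:C, then TNF). The groups with medium first were MC (CpG), ML (LPS), MP (polyI:C) and MT (TNF), and MM had medium in both periods. CpG DNA, a ligand of TLR9, was given at 100 nM, LPS, a ligand of TLR4, at 1 ng/mL, polyI:C, a double-stranded RNA mimic that TLR3 binds, at 1 µg/mL, and the cytokine TNF at 10 ng/mL. The assay was ATAC-seq, in which a transposase cuts open DNA, and values were log2 CPM, the log2 of reads in a region scaled to a common library size, as deposited by the authors.

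The libraries held 3141641 to 5986835 reads in regions, and the median Rab region held 43 to 89.5 reads, depending on the library. The MP libraries differed by less than the sampling noise of their reads (chi-square per region 1.003, p = 0.2857) and were counted as 1 sample, while the PT libraries were the least alike of the 9 pairs (2.714). The labels do not say whether the libraries of a group came from separate animals or cultures, so p-values measure the spread between these libraries, which may be technical. All 11 macrophage marker genes on the list had a region, among them Csf1r and Spi1. Markers of other cells with a region were 2 of 6 for B cells, 3 of 8 for T cells, 4 of 6 for neutrophils, 1 of 5 for erythroid cells, 3 of 6 for fibroblasts and stroma and 4 of 4 for endothelium, and their part in the results was not tested. Bulk accessibility cannot tell fewer cells with an open region from less opening per cell. Differences below are on the log2 scale with their standard error (SE), adjusted p-values are from limma with Benjamini-Hochberg adjustment over all regions, and a region was called when its adjusted p was under 0.05.

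The DNA around the start of 4 of the Rab genes named in the results is shown first. Each of these windows overlapped a measured region and could be set beside the more distant regions of the same gene. Each window runs 5′ to 3′ along the gene's strand, covers 250 bases before to 50 after the start (RefSeq, GRCm38.p6), and has in capitals the matches to NF-kB letters (GGG, any 5 letters, CC) or to an E-box (CACGTG). The windows are chr8:11478591-11478890 on the minus strand, chr17:65772703-65773002 on the minus strand, chr2:173659595-173659894 on the plus strand and chr17:66519621-66519920 on the minus strand.
Rab20: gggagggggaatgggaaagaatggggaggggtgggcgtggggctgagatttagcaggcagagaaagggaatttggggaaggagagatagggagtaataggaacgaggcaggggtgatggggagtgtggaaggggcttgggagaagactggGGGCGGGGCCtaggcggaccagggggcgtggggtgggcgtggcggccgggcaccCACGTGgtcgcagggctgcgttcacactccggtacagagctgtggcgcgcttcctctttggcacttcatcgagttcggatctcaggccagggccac
Rab31: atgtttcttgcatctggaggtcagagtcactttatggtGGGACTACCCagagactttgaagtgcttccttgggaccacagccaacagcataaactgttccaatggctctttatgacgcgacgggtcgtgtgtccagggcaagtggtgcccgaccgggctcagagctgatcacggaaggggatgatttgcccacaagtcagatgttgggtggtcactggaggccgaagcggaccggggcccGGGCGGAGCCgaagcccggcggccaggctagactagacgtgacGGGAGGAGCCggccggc
Rab22a: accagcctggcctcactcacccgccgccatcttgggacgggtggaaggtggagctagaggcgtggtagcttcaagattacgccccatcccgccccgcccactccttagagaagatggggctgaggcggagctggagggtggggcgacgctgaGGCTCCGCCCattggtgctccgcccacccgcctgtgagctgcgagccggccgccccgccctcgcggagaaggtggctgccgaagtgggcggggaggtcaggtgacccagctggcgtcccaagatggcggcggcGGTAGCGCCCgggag
Rab12: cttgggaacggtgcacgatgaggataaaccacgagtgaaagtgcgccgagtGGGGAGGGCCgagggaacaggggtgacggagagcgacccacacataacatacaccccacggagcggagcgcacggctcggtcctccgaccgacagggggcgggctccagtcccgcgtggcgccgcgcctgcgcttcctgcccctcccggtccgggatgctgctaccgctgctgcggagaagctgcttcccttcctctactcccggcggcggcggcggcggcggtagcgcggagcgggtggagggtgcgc
The letters of 6 motifs were searched on both strands in 60 windows of 48 Rab genes and in 21263 windows of all genes, and matches to different motifs may overlap. The NF-kB letters were in 68.3% of the Rab windows and 57.0% of all windows. The windows of Rab10 and Rab35, not shown, also overlapped a measured region over all 300 bases. That of Rab10 held the NF-kB letters, and that of Rab35 matched none of the 6 motifs. Median GC content was 61.2% in the Rab windows and 56.3% in all windows. The E-box was in 10.0% of Rab windows against 7.84% of all, the cAMP response element TGACGTCA in 3.33% against 2.23%, and the PU.1 letters GAGGAAGT in 3.33% against 3.13%. The AP-1 letters TGANTCA were in 5.0% against 6.99%, and the interferon response letters (GAAA, any 2 letters, GAAA) in 1.67% against 3.35%. These shares describe letters only, and a window without a match says only that these letters are not in it.

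A smaller share of the measured regions at Rab starts than of those elsewhere was called, as over all genes, and not every Rab start had a region. Of 60 promoter windows of Rab genes in RefSeq, 42 overlapped a measured region. Of the 51 Rab regions within 1 kb of a start, 10 (19.6%) were called in at least 1 comparison of a single stimulus with medium, against 68 of 136 (50.0%) of those elsewhere. Over all genes the same shares were 24.3% at starts and 47.7% elsewhere, close to those of the Rab genes. The distance between the highest and the lowest group mean had a median of 0.57 at Rab starts and 0.88 elsewhere. Rab5a, the Rab of early endosome fusion, is an example. Log2 CPM at its start (chr17:53479002-53479503) was 6.97 and 6.92 in CL, 7.00 and 7.10 in PL, 6.88 and 6.86 in CT, 7.22 and 7.23 in PT, 7.20 and 6.98 in MC, 6.97 and 6.95 in ML, 7.13 and 7.25 in MP, 7.03 and 7.00 in MT, and 7.09 and 7.01 in MM. CT was the lowest group and PT, MP and MC reached the highest values. No single stimulus was called there, while CT was lower than PT, with a difference of -0.36 ± 0.09 (adjusted p = 0.00347). After quantile normalization of the libraries this difference was -0.19 (adjusted p = 0.068), and it was not called either without the variance trend (adjusted p = 0.0663) or with only these groups in the fit (adjusted p = 0.0699). The start of Rab7, which drives fusion of late endosomes with lysosomes, held 4.21 and 4.52 in CL, 4.20 and 4.14 in PL, 4.04 and 4.51 in CT, 4.00 and 3.70 in PT, 4.43 and 4.71 in MC, 4.39 and 4.47 in ML, 4.53 and 4.82 in MP, 4.36 and 4.33 in MT, and 4.39 and 4.37 in MM. PT was the lowest group and was called lower than MT, with a difference of -0.50. That call was lost without the variance trend (adjusted p = 0.063) and with only these groups in the fit (adjusted p = 0.137). It was also lost without PT replicate 2 or either MT library. No single stimulus was called at the Rab7 start, with differences from MM of 0.20 ± 0.18 in MC and 0.30 ± 0.22 in MP (adjusted p = 0.463 and 0.371). The 11 regions within 1 kb of a gene end with no start listed included 2 (18.2%) called.

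**Figure D1:**
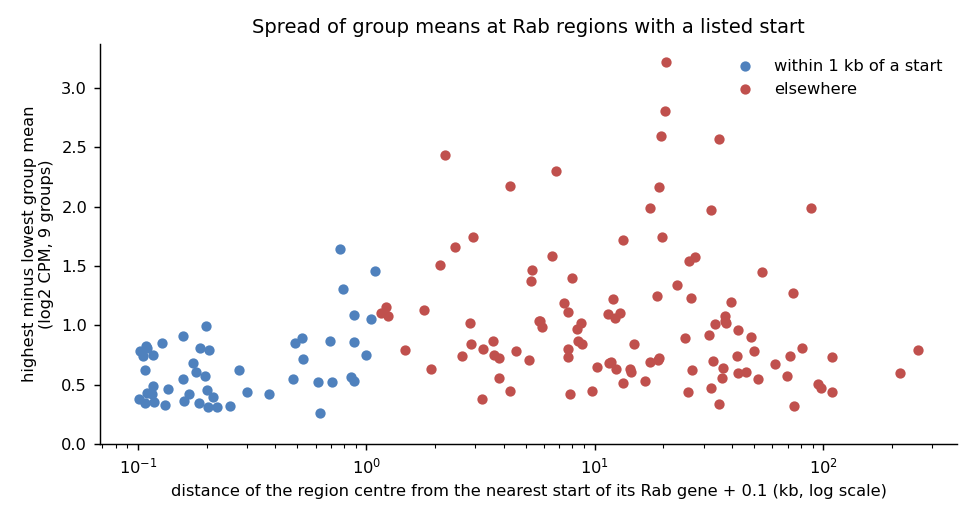
Highest minus lowest of the 9 group means (log2 CPM) for each Rab region with a listed start, against the distance of its centre from the start (kb plus 0.1, log scale); blue points lie within 1 kb of a start and red points elsewhere. The median was 0.57 at starts and 0.88 elsewhere, and values reached 1.64 at starts and 3.22 elsewhere.

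Each single stimulus opened regions at Rab genes, TNF the fewest. In MC, 34 Rab regions rose and 11 fell against MM, beside 17.2% and 8.79% of all regions called in those directions, which made 17.2% and 5.56% of the Rab regions. In ML, 31 rose and 19 fell (all regions, 15% and 9.55%). In MP, 28 rose and 18 fell (14.3% and 8.28%), and in MT 13 rose and 2 fell (5.79% and 0.573%). The Rab shares in the other 3 groups were 15.7% and 9.6% in ML, 14.1% and 9.09% in MP, and 6.57% and 1.01% in MT, all near the background. After quantile normalization of the libraries 18 rose and 18 fell in MP, and 10 rose in MT. In all, 80 regions at 35 genes were called with at least 1 single stimulus and 118 with none. The 17 genes with no such call were Rab11a, Rab11b, Rab13, Rab19, Rab1a, Rab1b, Rab21, Rab26, Rab2b, Rab33b, Rab36, Rab3a, Rab3b, Rab40b, Rab42, Rab4b and Rab7, whose 34 regions had mean levels of 2.32 to 6.71. All 13 regions that rose in MT also rose in ML, a comparison that shares the MM libraries, and 11 rose with all 4 stimuli. The ML count of 50 calls became 33 without ML replicate 1, without MM replicate 1 or without MM replicate 2.

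Rab regions were also called between groups with and without a first stimulus, in shares close to those of all regions or a few points apart. No share was tested against that of all regions. In CL against ML, 18 regions rose and 11 fell, or 9.09% and 5.56% of Rab regions, beside 9.95% and 5.76% of all regions. In PL against ML 23 rose and 18 fell, or 11.6% and 9.09%, beside 13.5% and 9.36%. With the libraries shifted to a common median, 12 rose and 20 fell in CL and 18 rose and 22 fell in PL against ML, so the balance of directions there turned with the scaling. In CT against MT, 21 rose and 6 fell, or 10.6% and 3.03% of Rab regions (all regions, 10.6% and 5.65%). In PT against MT 25 rose and 30 fell, or 12.6% and 15.2% (all regions, 15% and 12.7%). These counts moved with single libraries. The 29 calls of CL against ML became 8 or 18 when CL replicate 1 or 2 was left out, and 7 or 17 when ML replicate 1 or 2 was. The 41 of PL against ML became 24 or 16 when PL replicate 1 or 2 was left out, and 18 or 21 when ML replicate 1 or 2 was. The 27 of CT against MT became 14 without CT replicate 2 or without MT replicate 2, and the 55 of PT against MT became 29 without PT replicate 2 or without MT replicate 1. Over the 13 comparisons of 2 groups planned, 144 of 414 calls held in every fit that left out 1 library. The calls given with a difference below are among those 144 unless said otherwise. The regions named below at Rab4a, Rab9, Rab14 and Rab21, the Rab8b start, the second at Rab10, the region 17.5 kb inside Rab20 and its start, the region 19.6 kb inside Rab22a, the Rab31 start and the region that rose inside Rab32 were chosen after their values were seen.

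**Figure D2:**
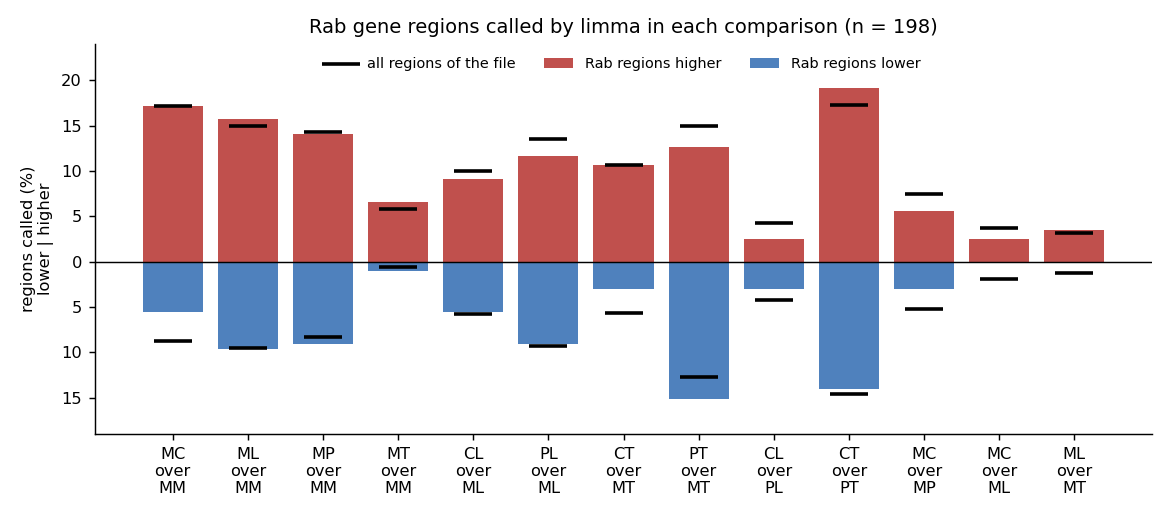
Share of the 198 Rab regions called higher (red, above 0) and lower (blue, below 0) by limma in each of 13 comparisons, in percent, with black lines for the share of all 53796 regions. Bars lie near the lines, for example 17.2% higher in MC over MM for both, and the PT over MT bar reaches 15.2% lower against 12.7% of all regions.

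Rabs of the early endosome, the phagosome and the macropinosome (49 regions at 7 genes) had both rises and falls. In MC 10 of these regions rose and 5 fell, in ML 10 and 11, in MP 11 and 5, and in MT 5 and 1. Of all regions, 17.2% were called higher and 8.79% lower in MC, and 15% and 9.55% in ML. The shares were 14.3% and 8.28% in MP, and 5.79% and 0.573% in MT. They also stand beside the counts of the other role lists below, and no list was tested against them. Rab20, which acts on phagosomes and macropinosomes in macrophages, had 10 regions. Of these, 5 rose in MC, 7 in ML, 7 in MP and 4 in MT. The region inside the gene at chr8:11458165-11458666, 20.2 kb from the start, had log2 CPM of 4.92 and 5.19 in CL, 5.17 and 5.04 in PL, 4.48 and 4.61 in CT, 5.05 and 4.38 in PT, 4.28 and 4.86 in MC, 5.11 and 5.02 in ML, 5.04 and 4.96 in MP, 3.87 and 3.48 in MT, and 2.10 and 2.49 in MM. Every library with a stimulus lay above both MM libraries. It rose by 2.27 ± 0.20 in MC (adjusted p = 5.29e-11), 2.77 ± 0.20 in ML (adjusted p = 8.17e-13), 2.71 ± 0.25 in MP (adjusted p = 2.52e-10) and 1.38 ± 0.20 in MT (adjusted p = 8.78e-06). The rise in ML was 6.83-fold on this scale and exceeded that in MT, since ML was higher than MT by 1.39 ± 0.20 (adjusted p = 2.57e-05). The Rab20 region 17.5 kb from the start, chr8:11460928-11461429, rose by 1.40 ± 0.19 in MC, 1.75 ± 0.19 in ML, 1.90 ± 0.23 in MP and 1.35 ± 0.19 in MT. The Rab20 start itself (chr8:11478392-11478893), the window printed above, was not called with any single stimulus, the difference of ML from MM being 0.25 ± 0.20. This start was called higher in CT than in MT, by 0.62, a call lost without either CT library or MT replicate 2.

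A neighbouring Rab20 region was called in other comparisons. At chr8:11458978-11459479, 19.4 kb from the start, log2 CPM was 3.77 and 3.72 in CL, 3.25 and 2.90 in PL, 3.78 and 3.96 in CT, 2.21 and 1.28 in PT, 1.89 and 2.44 in MC, 1.94 and 0.90 in ML, 1.57 and 1.47 in MP, 1.64 and 0.90 in MT, and 1.62 and 1.49 in MM. All libraries of CL, PL and CT lay above those of every other group. In reads this was 51 and 63 in CL, 41 and 31 in PL and 65 and 88 in CT, against 20 and 6 in PT, 15 and 26 in MC, 17 and 7 in ML, 13 and 10 in MP, 15 and 5 in MT and 14 and 7 in MM. With a single stimulus it was not called, the difference being 0.61 ± 0.34 in MC (adjusted p = 0.189) and -0.13 ± 0.34 in ML (adjusted p = 0.809). With CpG first it rose by 2.32 ± 0.34 in CL against ML (adjusted p = 1.07e-05) and by 2.60 ± 0.34 in CT against MT (adjusted p = 5.39e-07). With polyI:C first it rose by 1.65 ± 0.34 in PL against ML (adjusted p = 0.000478), while the difference of PT from MT was 0.47 ± 0.34 (adjusted p = 0.307). The polyI:C difference under LPS minus that under TNF was 1.18 ± 0.47 and was not called (adjusted p = 1).

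Comparisons with the first stimulus given alone were added after these values were seen. MC and MP had 4 h of the stimulus, harvested at its end, while CL, CT and PL had it 4 h earlier, so time since the stimulus differs as well. In CL against MC the region was higher by 1.58 ± 0.34 (adjusted p = 0.00727; 1.93% of all regions were called higher and 2 of the 198 Rab regions). In CT against MC the difference was 1.70 ± 0.34 (adjusted p = 0.00413; background 1.18%, 5 Rab regions) and in PL against MP 1.55 ± 0.41 (adjusted p = 0.0143; background 5.77%, 12 Rab regions). All 3 calls rested on single libraries. The adjusted p of CL against MC became 0.101 without CL replicate 1, 0.0779 without CL replicate 2 and 0.159 without MC replicate 1. That of CT against MC became 0.0982 without CT replicate 2 and 0.144 without MC replicate 1, and that of PL against MP 0.107 without PL replicate 1.

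**Figure D3:**
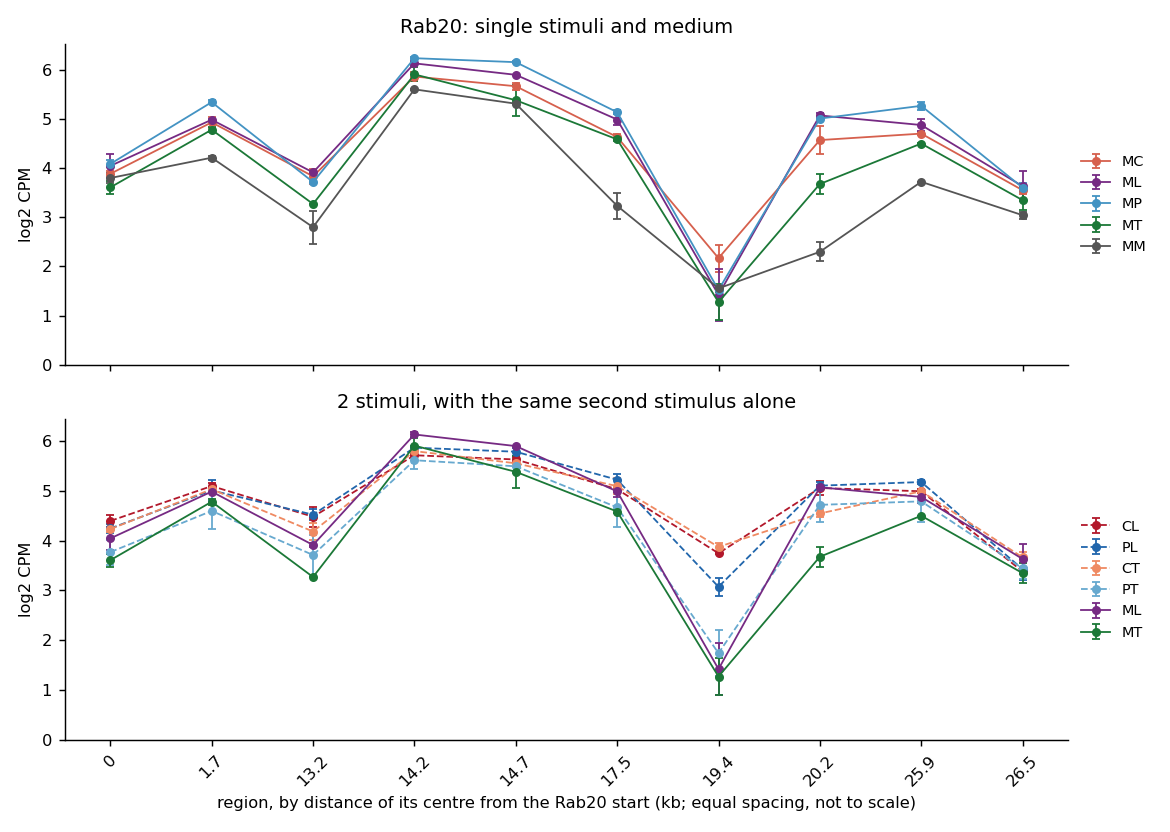
Mean log2 CPM of the 10 Rab20 regions, ordered by distance from the gene start in kb with equal spacing, for single stimuli and medium (top) and for 2 stimuli beside the same second stimulus alone (bottom); bars span the 2 libraries. MM is lowest at 20.2 kb, and CL, PL and CT are highest at 19.4 kb.

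Rab31, which works in traffic between the trans-Golgi network and endosomes, had the most regions, 15. The region inside the gene at chr17:65740336-65740837, 32.2 kb from the start, had log2 CPM of 6.37 and 6.21 in CL, 5.87 and 6.04 in PL, 6.36 and 6.25 in CT, 4.76 and 5.01 in PT, 6.14 and 6.13 in MC, 4.88 and 4.90 in ML, 4.45 and 4.69 in MP, 4.36 and 4.33 in MT, and 4.30 and 4.37 in MM. The groups that met CpG in either period were the highest, and PL came next. It rose by 1.80 ± 0.13 in MC (adjusted p = 3.52e-13) and by 0.56 ± 0.13 in ML (adjusted p = 0.00162), and the differences of MP and MT from MM were 0.23 ± 0.16 and 0.01 ± 0.13. MC exceeded ML by 1.25 ± 0.13 (adjusted p = 3.02e-07) and MP by 1.57 ± 0.16 (adjusted p = 1.51e-08). With CpG first it rose by 1.40 ± 0.13 in CL against ML and 1.96 ± 0.13 in CT against MT. With polyI:C first it rose by 1.06 ± 0.13 in PL against ML (adjusted p = 4.28e-07), although polyI:C alone gave no call there. The region was also called higher in PT than in MT, by 0.54. That call was lost with only these groups in the limma fit (adjusted p = 0.0732). PL was higher than MP by 1.38 ± 0.16 (adjusted p = 6.14e-07), in the comparison added later.

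Closer to the Rab31 start, the region at chr17:65765843-65766344 (6.7 kb) was higher after 2 stimuli than after LPS or TNF alone. Its log2 CPM was 3.25 and 3.20 in CL, 3.04 and 2.90 in PL, 2.91 and 2.89 in CT, 2.49 and 2.27 in PT, 2.81 and 1.77 in MC, 0.96 and 0.90 in ML, 1.48 and 1.77 in MP, 1.20 and 0.90 in MT, and 1.84 and 1.64 in MM. All libraries of CL, PL and CT lay above those of every other group, and PT lay above ML, MP, MT and MM. It rose by 2.30 ± 0.31 in CL against ML (adjusted p = 3.37e-06), 2.04 ± 0.31 in PL against ML (adjusted p = 1.02e-05), 1.85 ± 0.31 in CT against MT (adjusted p = 3.66e-05) and 1.33 ± 0.31 in PT against MT (adjusted p = 0.00144). After quantile normalization of the libraries the last was 0.82 and not called (adjusted p = 0.0565). The difference of MC from MM was 0.54 ± 0.31 (adjusted p = 0.205). ML was itself called lower than MM, with a difference of -0.81, so CL and PL were set against a group below medium. After quantile normalization that difference was -1.28 (adjusted p = 0.00433). The call was lost without any 1 of the ML and MM libraries and with only these groups in the fit (adjusted p = 0.0744). Against the first stimulus alone, CL differed from MC by 0.94 ± 0.31 (adjusted p = 0.085), CT from MC by 0.61 ± 0.31 (adjusted p = 0.35) and PL from MP by 1.34 ± 0.38 (adjusted p = 0.0213). The last became 0.103 without PL replicate 1 and 0.0718 without PL replicate 2. A region 4.2 kb from the start, chr17:65768352-65768853, fell with CpG, LPS and polyI:C alone. Its values were 3.40 and 3.41 in CL, 3.34 and 2.45 in PL, 3.85 and 3.76 in CT, 3.20 and 3.18 in PT, 4.01 and 4.17 in MC, 4.03 and 3.82 in ML, 3.35 and 3.62 in MP, 4.56 and 4.45 in MT, and 4.96 and 5.17 in MM. MM was the highest group and MT the next. The differences were -0.98 ± 0.21 in MC, -1.14 ± 0.21 in ML and -1.58 ± 0.26 in MP, and PT was lower than MT, with -1.31 ± 0.21. The Rab31 gene thus held regions that rose and regions that fell with the same stimulus, and at its start, shown above, MC differed from MM by -0.11 ± 0.16 and CL from ML by 0.22 ± 0.16, not called.

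**Figure D4:**
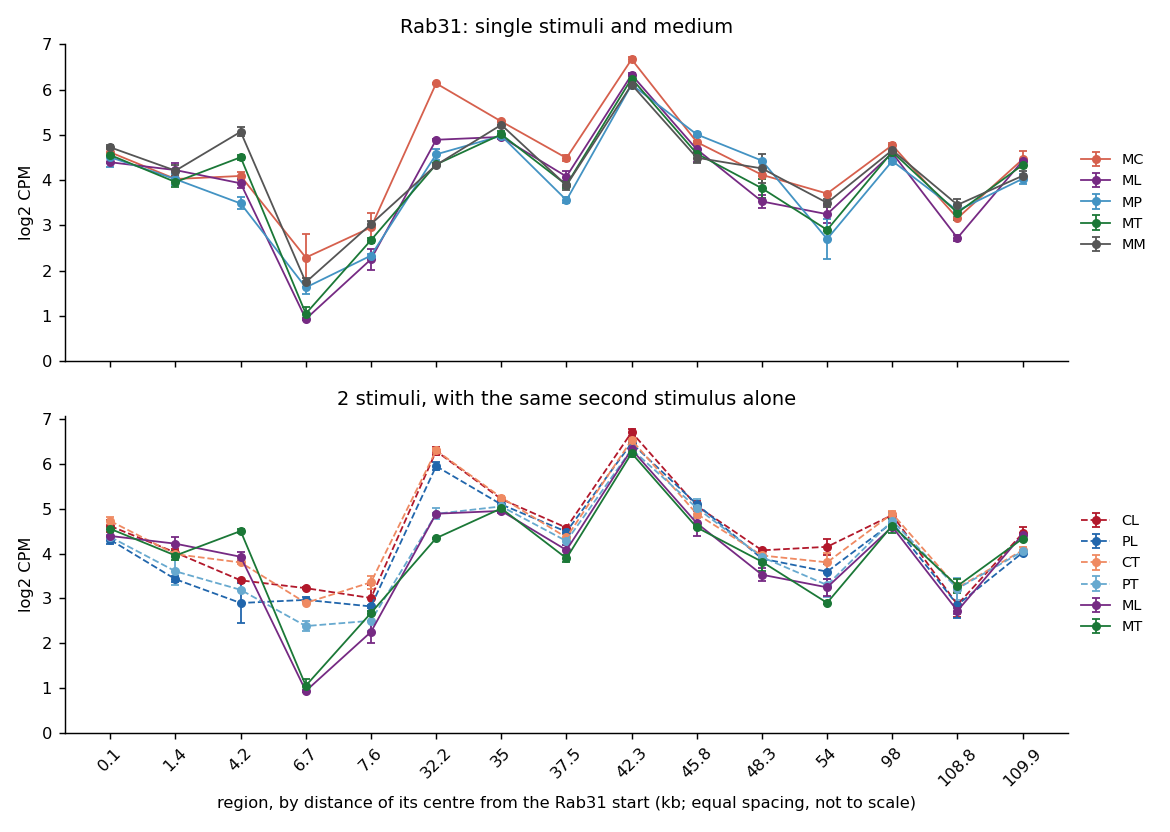
Mean log2 CPM of the 15 Rab31 regions, ordered by distance from the gene start in kb with equal spacing, drawn as for Rab20 with bars that span the 2 libraries. CL, CT, MC and PL lie highest at 32.2 kb, the groups with 2 stimuli lie above ML and MT at 6.7 kb, and MM lies highest at 4.2 kb.

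Rab22a, which organises early and recycling endosomes, had a region that was highest in the groups given polyI:C. This region, at chr2:173680131-173680632, inside the gene and 20.5 kb from the start, had log2 CPM of 2.91 and 3.29 in CL, 4.25 and 4.44 in PL, 3.06 and 2.75 in CT, 4.69 and 4.79 in PT, 3.15 and 2.87 in MC, 3.07 and 2.85 in ML, 4.57 and 4.84 in MP, 3.00 and 2.83 in MT, and 1.91 and 1.12 in MM. MP, PL and PT were the highest groups and MM the lowest. It rose by 3.19 ± 0.29 in MP (adjusted p = 2.52e-10), or 9.1-fold on this scale, and by 1.49 ± 0.24 in MC, 1.44 ± 0.24 in ML and 1.39 ± 0.24 in MT. After quantile normalization of the libraries the last 3 were 0.91, 0.94 and 0.89, still called. MC was lower than MP, with a difference of -1.70 ± 0.29 (adjusted p = 8.66e-05). In that comparison 11 Rab regions were higher and 6 lower (background 7.47% and 5.2%). With the MP libraries as 2 samples, or with voom on recovered reads, 19 were higher and 18 lower, so this balance depended on the fit. The count of calls also fell without MC replicate 1. With polyI:C first this Rab22a region rose by 1.39 ± 0.24 in PL against ML and 1.83 ± 0.24 in PT against MT (adjusted p = 6e-05 and 6.8e-07). The regions 19.0 and 19.6 kb from the start were also higher with polyI:C. At chr2:173678561-173679062 PL was higher than ML by 1.75 ± 0.31 and PT higher than MT by 1.60 ± 0.31, and at chr2:173679152-173679653 MP was higher than MM by 1.72 ± 0.26. In contrast, chr2:173685866-173686367 held 4.01 and 3.84 in MC, against 5.21 and 4.88 in MM, and fell, with differences of -1.12 ± 0.17 in MC, -0.97 ± 0.17 in ML and -0.89 ± 0.21 in MP.

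Rab5c, a close relative of Rab5a on early endosomes, had a region that was higher with CpG first than with medium first. At 1.0 kb inside the gene, chr11:100736970-100737471 had 3.71 and 3.65 in CL, 3.43 and 3.48 in PL, 4.00 and 4.32 in CT, 2.59 and 3.13 in PT, 3.04 and 3.33 in MC, 2.66 and 2.74 in ML, 3.50 and 3.40 in MP, 2.87 and 2.73 in MT, and 2.60 and 3.45 in MM. CT and CL were the highest groups and ML the lowest. It was higher in CT than in MT by 1.36 ± 0.24 (adjusted p = 0.000109) and higher than in PT by 1.30 ± 0.24. It was also higher in CL than in ML by 0.98 ± 0.24 (adjusted p = 0.00496) and in PL than in ML by 0.76 ± 0.24 (adjusted p = 0.0221). The call in CL was lost without CL replicate 1 (adjusted p = 0.0579) or ML replicate 1 (adjusted p = 0.0584), and that in PL without any 1 of the PL and ML libraries (adjusted p = 0.0792 to 0.127) and after quantile normalization (adjusted p = 0.0615). The start of Rab21, an endosomal Rab of integrin traffic, differed from MM by 0.09 ± 0.18 in MC and -0.23 ± 0.18 in ML, neither of which was called.

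**Figure D5:**
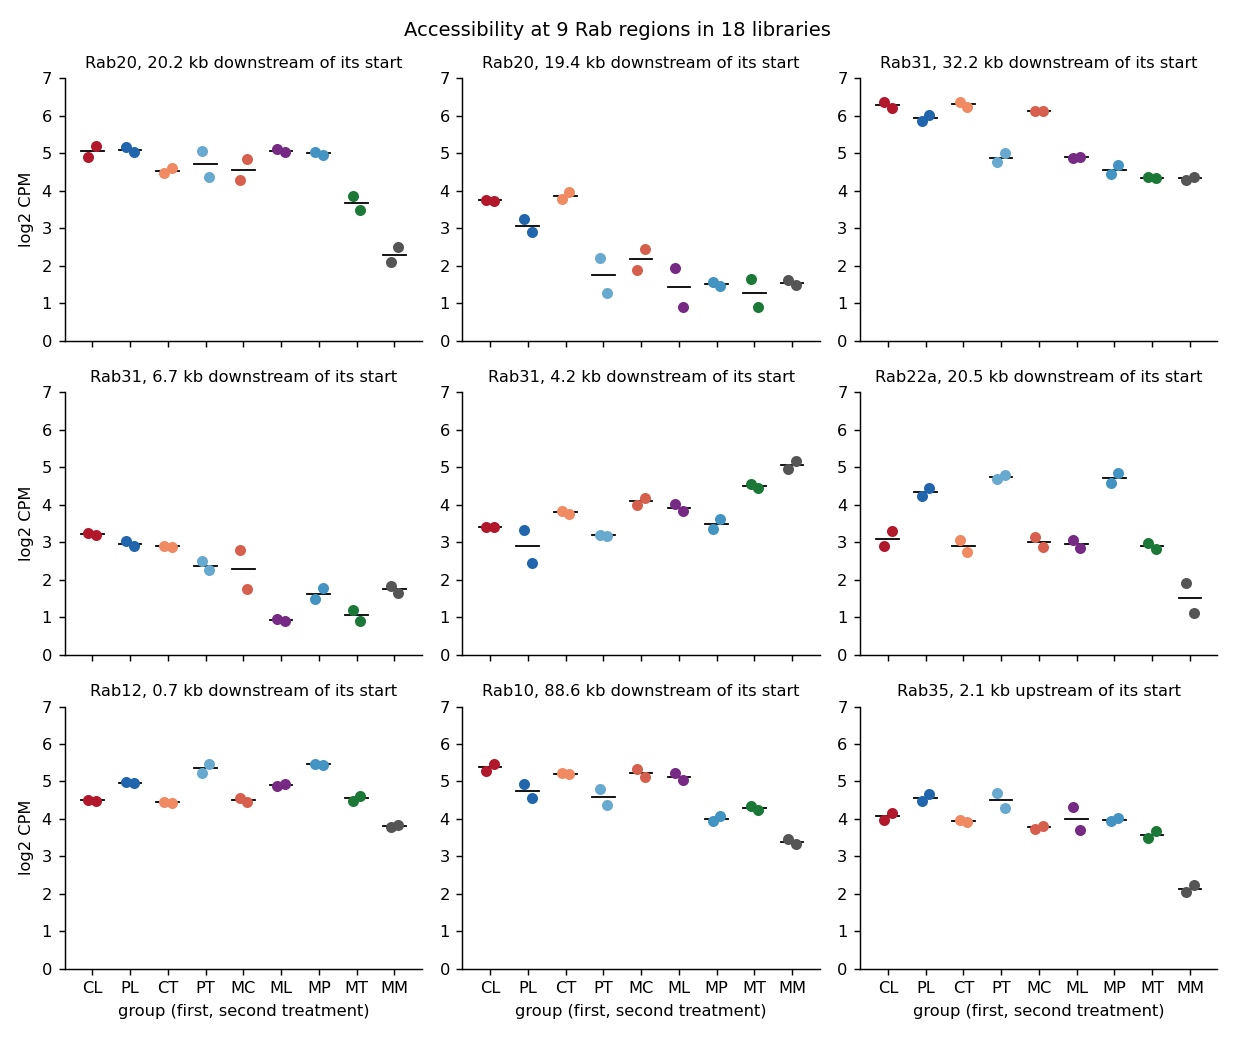
Log2 CPM of 9 Rab regions in each of the 18 libraries, with points for libraries and a line for the mean of the 2 libraries of a group, each panel named by the distance from the gene start. MM is lowest in the Rab20 (20.2 kb), Rab22a, Rab12, Rab10 and Rab35 panels and highest in the Rab31 (4.2 kb) panel.

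Among Rabs of recycling and delivery to the plasma membrane (34 regions at 10 genes), 9 regions rose in MC and 1 fell, 7 rose and 3 fell in MP, and 10 rose in ML and 2 in MT. Rab10 delivers TLR4 to the macrophage surface. Its region at chr12:3221111-3221612, beyond the gene and 88.6 kb from the start, had log2 CPM of 5.29 and 5.46 in CL, 4.94 and 4.56 in PL, 5.22 and 5.20 in CT, 4.81 and 4.38 in PT, 5.32 and 5.11 in MC, 5.22 and 5.04 in ML, 3.93 and 4.09 in MP, 4.36 and 4.24 in MT, and 3.45 and 3.32 in MM. CL, CT, MC and ML were the high groups and MM the lowest. It rose by 1.83 ± 0.16 in MC (adjusted p = 6.29e-11), 1.74 ± 0.16 in ML (adjusted p = 3.21e-10) and 0.91 ± 0.16 in MT (adjusted p = 0.000198), and MC exceeded MP by 1.21 ± 0.20. Inside the gene, chr12:3282442-3282943 rose by 1.34 ± 0.23 in MC and 1.22 ± 0.23 in ML.

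Rab35, a Rab of fast recycling to the plasma membrane, carried a region 2.1 kb before its start that rose with every stimulus. At chr5:115629619-115630120 log2 CPM was 3.97 and 4.17 in CL, 4.48 and 4.66 in PL, 3.98 and 3.93 in CT, 4.70 and 4.29 in PT, 3.74 and 3.81 in MC, 4.31 and 3.71 in ML, 3.95 and 4.01 in MP, 3.48 and 3.69 in MT, and 2.04 and 2.23 in MM. Every group with a stimulus lay above both MM libraries. It rose by 1.64 ± 0.20 in MC, 1.87 ± 0.20 in ML, 1.85 ± 0.25 in MP and 1.45 ± 0.20 in MT (adjusted p = 6.11e-08, 5.67e-09, 4.93e-07 and 3.53e-06). The Rab35 start was not called in these comparisons. Rab14, of traffic between the Golgi and endosomes, had 3.25 and 3.33 in MC, against 2.16 and 1.91 in MM, at chr2:35203692-35204193, 2.8 kb before its start, and rose there by 1.26 ± 0.25 in MC and 1.14 ± 0.25 in ML. Rab4a, another Rab of fast recycling, had a single region, 42.0 kb from the gene (chr8:123763377-123763878), with 3.89 and 3.88 in MC, against 2.55 and 2.32 in MM, and it rose by 1.45 ± 0.20 in MC, 1.22 ± 0.20 in ML and 0.95 ± 0.20 in CT against MT. It is among the farthest members, and the nearest regions left out by the 50 kb limit lay 52.8 and 54.9 kb from Rab38, at mean levels of 2.53 and 2.55 against 3.46 for the Rab4a region.

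Rab8a and Rab8b both bring vesicles to the plasma membrane, and each had regions that rose. Beyond Rab8a, chr8:72183774-72184275 held 4.48 and 4.64 in MC, against 3.62 and 3.49 in MM, rose by 1.00 ± 0.18 in MC and was higher in MC than in MP by 1.34 ± 0.22. Inside Rab8a, chr8:72169220-72169721 held 3.79 and 4.24 in MP, against 3.12 and 3.02 in MM, and rose by 0.95 ± 0.25 in MP. Within 1 kb of the start of Rab8b, chr9:66918501-66919002 held 3.93 and 3.87 in MP, against 3.02 and 3.02 in MM, and rose by 0.88 ± 0.26 in MP. It was also called higher in ML, by 0.90 ± 0.21, and in MC, by 0.58 ± 0.21 (adjusted p = 0.00199 and 0.0416), of which the first was lost without ML replicate 2 (adjusted p = 0.0814) and the second without any 1 of the MC and MM libraries (adjusted p = 0.0734 to 0.242) and after quantile normalization (adjusted p = 0.102). Inside Rab8b, chr9:66882241-66882742 held 4.48 and 4.73 in MC, against 5.41 and 5.40 in MM, and fell, with a difference of -0.80 ± 0.18. Rab11a, the Rab of the recycling endosome, had 3 regions, and its start (chr9:64737501-64738002) differed from MM by 0.10 ± 0.18 in MC (95% interval -0.25 to 0.46) and 0.16 ± 0.18 in ML (-0.19 to 0.52), not called. All 3 regions were called higher in CT than in PT, the start by 0.56. The call at the start was lost without CT replicate 2 or PT replicate 2, and with only these groups in the fit (adjusted p = 0.0964).

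Rabs of late endosomes, lysosomes and lysosome-related organelles (33 regions at 9 genes) had 6 regions higher and 1 lower in MC, 5 and 1 in ML, and 3 and 3 in MP, and 3 regions rose in MT. Rab12 directs recycling endosome cargo to lysosomes. Its region 0.7 kb inside the start, chr17:66518750-66519251, had log2 CPM of 4.51 and 4.48 in CL, 4.98 and 4.96 in PL, 4.46 and 4.44 in CT, 5.23 and 5.48 in PT, 4.57 and 4.46 in MC, 4.89 and 4.94 in ML, 5.46 and 5.45 in MP, 4.47 and 4.62 in MT, and 3.78 and 3.85 in MM. MP and PT were the highest groups and MM the lowest. It rose by 1.64 ± 0.18 in MP (adjusted p = 1.17e-08), 1.10 ± 0.15 in ML (adjusted p = 4.84e-07), 0.73 ± 0.15 in MT and 0.70 ± 0.15 in MC, and MC was lower than MP, with a difference of -0.94 ± 0.18. A region 5.2 kb inside, chr17:66514269-66514770, rose by 1.37 ± 0.14 in MC, 1.09 ± 0.14 in ML, 1.13 ± 0.17 in MP and 0.83 ± 0.14 in MT. The region over the start itself, chr17:66519499-66520000, was not higher in any of these. It fell in ML, with a difference of -0.58 ± 0.17 (adjusted p = 0.00872), a call lost without ML replicate 1 (adjusted p = 0.0676), MM replicate 1 (adjusted p = 0.0537) or MM replicate 2 (adjusted p = 0.0559).

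Rab7b, of transport from late endosomes to the trans-Golgi network and linked with loss of TLR4, had a region that fell. Inside the gene, chr1:131690389-131690890 had 4.72 and 4.98 in CL, 4.75 and 4.70 in PL, 5.29 and 5.51 in CT, 5.10 and 4.68 in PT, 5.08 and 5.32 in MC, 5.72 and 5.62 in ML, 4.37 and 4.58 in MP, 5.65 and 5.27 in MT, and 5.54 and 5.52 in MM. MP was the lowest group, and ML, MM, MT and CT were the highest. The differences were -1.05 ± 0.19 in MP against MM, -0.82 ± 0.15 in CL against ML and -0.95 ± 0.15 in PL against ML (adjusted p = 5.36e-05, 0.000304 and 2.74e-05). Rab38 and Rab32, which serve lysosome-related organelles, had regions that rose, and Rab32 also had a region that fell. Inside Rab38, chr7:88478108-88478609 held 2.91 and 3.14 in CL and 2.83 and 3.24 in PL, against 1.87 and 1.87 in ML, a rise of 1.15 ± 0.25 and 1.17 ± 0.25. At chr7:88468564-88469065 PT was higher than MT by 1.56 ± 0.29. Inside Rab32, chr10:10555205-10555706 held 4.58 and 4.33 in ML, against 3.50 and 3.85 in MM, and rose by 0.78 ± 0.18 in ML, while the start of Rab32 differed from MM by -0.06 ± 0.11. Also inside Rab32, chr10:10552758-10553259 fell in MP, with a difference of -1.02 ± 0.33 (adjusted p = 0.0215), a call lost without MM replicate 1. Rab9, of transport from late endosomes to the trans-Golgi network, had 4.08 and 3.99 in MP, against 2.75 and 3.02 in MM, at chrX:166478497-166478998 and rose there by 1.15 ± 0.27 in MP.

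Rabs of the endoplasmic reticulum and Golgi (38 regions at 10 genes) had 5 regions higher and 2 lower in MC, 2 and 4 in ML, 3 and 3 in MP, and 2 and 1 in MT. Rab30, a Golgi Rab, carried the member of this set that moved most with a single stimulus. Between genes, chr7:92737581-92738082 had log2 CPM of 2.95 and 2.96 in CL, 3.07 and 3.51 in PL, 2.60 and 3.05 in CT, 3.43 and 3.63 in PT, 2.93 and 2.49 in MC, 2.61 and 2.92 in ML, 2.97 and 3.17 in MP, 2.04 and 2.42 in MT, and 0.40 and 1.12 in MM. All stimulated groups lay above MM. It rose by 1.95 ± 0.28 in MC, 2.00 ± 0.28 in ML, 2.31 ± 0.34 in MP and 1.47 ± 0.28 in MT (adjusted p = 1.08e-06, 9.26e-07, 2.73e-06 and 0.000371). After quantile normalization of the libraries the rises were 1.14 in MC, 1.30 in ML and, no longer called, 0.86 in MT (adjusted p = 0.095). Rab6b, a Golgi Rab, fell at chr9:103149026-103149527, which held 3.56 and 3.54 in MP, against 4.41 and 4.45 in MM, with a difference of -0.88 ± 0.26. Rab1a, of transport from the endoplasmic reticulum to the Golgi, had a region 42.0 kb from the gene (chr11:20158925-20159426) that was lower in PL than in ML and in PT than in MT, with differences of -0.86 ± 0.17 and -0.79 ± 0.17.

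Rabs of regulated secretion (24 regions at 8 genes) had 3 regions higher and 1 lower in MC, 3 and 1 in ML, and 3 and 2 in MP, and 1 region rose in MT. Rab3c, a Rab of secretory vesicles, had 3.49 and 4.00 in ML, against 2.27 and 2.32 in MM, at chr13:110277616-110278117, 2.3 kb inside the gene, and rose by 1.47 ± 0.21 in MC, 1.45 ± 0.21 in ML and 1.04 ± 0.21 in MT. Rab37, found on secretory granules, had 4.32 and 4.46 in MP, against 2.86 and 2.78 in MM, at chr11:115105118-115105619 and rose by 1.57 ± 0.27 in MP, 0.90 ± 0.22 in ML and 1.11 ± 0.22 in CT against MT. Rab27a, which brings lysosome-related organelles to the plasma membrane, had 4.75 and 4.82 in MC, 4.55 and 4.85 in ML and 4.37 and 4.32 in MM inside the gene at chr9:73089518-73090019, and rose by 0.44 ± 0.16 in MC (adjusted p = 0.0408), a call that was lost without either MC library or either MM library (adjusted p = 0.109 to 0.183) and under quantile normalization or a common median. The difference of 0.35 ± 0.16 in ML was not called (adjusted p = 0.112). Among the Rabs with other or less known roles (20 regions at 8 genes), 1 region rose and 1 fell in MC, 1 and 2 in ML, and 1 and 2 in MP. In that set, Rab15 at chr12:76817430-76817931 held 3.85 and 3.59 in PT, against 2.04 and 2.78 in MT, a rise of 1.31 ± 0.24 in PT.

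With TNF as the later stimulus, Rab regions were called between CpG and polyI:C as the first in shares near those of all regions. In CT against PT, 38 regions were higher and 28 lower, or 19.2% and 14.1% of Rab regions, beside 17.3% and 14.6% of all regions. The 66 calls became 24 without CT replicate 2, 26 without PT replicate 2 and 101 without PT replicate 1. CT was higher at the Rab20 region 19.4 kb from the start by 2.13 ± 0.34, and at the Rab31 region 32.2 kb from the start by 1.42 ± 0.13. Rab33a had 3.63 and 3.46 in CT, against 2.08 and 1.97 in PT, at chrX:48525423-48525924, a difference of 1.52 ± 0.24. CT was lower at the Rab22a region 20.5 kb from the start, with a difference of -1.84 ± 0.24, and at a Rab12 region (chr17:66507514-66508015), with -1.22 ± 0.28. With LPS as the later stimulus, CL was higher than PL in 5 regions and lower in 6 (background 4.24% and 4.23%), or 13 and 10 after quantile normalization, and the 11 calls became 1 without CL replicate 1, 3 without CL replicate 2, 6 without PL replicate 1 and 5 without PL replicate 2. The call that held was the Rab22a region, lower in CL with a difference of -1.25 ± 0.24 (adjusted p = 0.000973). CpG against LPS as single stimuli gave 5 Rab regions higher and 0 lower in MC than in ML (background 3.74% and 1.93%), or 4 and 1 with a common median. At an unadjusted p under 0.05 limma gave 30 higher and 14 lower, and voom on recovered reads called 11 in all. The 5 became 1 when MC replicate 1 was left out, and 2 or 3 when ML replicate 1 or 2 was. ML against MT gave 7 higher and 0 lower (background 3.11% and 1.23%), or 30 and 12 at an unadjusted p under 0.05, and the 7 became 1 or 4 when ML replicate 1 or 2 was left out, and 2 when MT replicate 2 was.

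Whether the effect of a first stimulus differed between LPS and TNF as the later one was tested as a difference of differences, (CL minus ML) minus (CT minus MT) for CpG and (PL minus ML) minus (PT minus MT) for polyI:C, and limma called no Rab region. The background was 0.245% of all regions for CpG and 0% for polyI:C. At an unadjusted p under 0.05, 8 Rab regions were higher and 18 lower for CpG, and 7 higher and 8 lower for polyI:C. Voom on recovered reads called 1 and 0, and a fit of the compared groups alone called 4 and 0. Leaving out MT replicate 1 gave 1 call for CpG, and leaving out PT replicate 1 or 2 gave 2 or 1 for polyI:C. For CpG the Rab31 region 32.2 kb from the start had -0.56 ± 0.18 (95% interval -0.93 to -0.19; adjusted p = 0.222), the Rab10 region 88.6 kb from the start -0.66 ± 0.23 (adjusted p = 0.248) and the Rab20 region 19.4 kb from the start -0.28 ± 0.47 (adjusted p = 0.852). The median SE of such a difference was 0.294.

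The regulators and effectors of Rabs were described through a list of 131 genes, of which 119 had 624 regions. In MC 112 of these regions rose and 68 fell against MM (17.9% and 10.9%, at backgrounds of 17.2% and 8.79%). In ML 92 rose and 61 fell (14.7% and 9.78%, background 15% and 9.55%). In MP it was 80 and 61 (12.8% and 9.78%, background 14.3% and 8.28%). In MT it was 37 and 2 (5.93% and 0.321%, background 5.79% and 0.573%). Among effectors, 40 of 199 regions rose and 14 fell in MC, among GEFs 37 and 20 of 184, among GAPs 34 and 32 of 224, and among GDI, REP and prenylation genes 1 and 2 of 17. Rab11fip1, a recycling endosome effector of Rab11, had 4.70 and 4.29 in MC, against 1.84 and 1.64 in MM inside the gene at chr8:27172393-27172894. It rose by 2.75 ± 0.18 in MC (adjusted p = 2.4e-14), 2.30 ± 0.18 in ML, 2.19 ± 0.22 in MP and 1.72 ± 0.18 in MT. Eea1, the early endosome tether that Rab5 recruits, had 5.07 and 5.03 in MC, against 2.42 and 2.41 in MM at chr10:96093826-96094327, and rose by 2.64 ± 0.19 in MC and 1.91 ± 0.19 in CT against MT. Tbc1d23, a protein of the TBC family that tethers vesicles at the trans-Golgi network, rose with polyI:C at chr16:57175750-57176251. It held 4.11 and 4.19 in MP, against 1.44 and 0.64 in MM. It rose by 3.11 ± 0.29 in MP, 2.36 ± 0.24 in PL against ML and 3.00 ± 0.24 in PT against MT. The same region held 2.20 and 2.29 in ML, also above both MM libraries, and 1.30 and 1.64 in MT.

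After a first stimulus, 78 regions of this list rose and 41 fell in CL against ML (12.5% and 6.57%, background 9.95% and 5.76%). In PL against ML 90 rose and 66 fell (14.4% and 10.6%, background 13.5% and 9.36%). In CT against MT it was 82 and 39 (13.1% and 6.25%, background 10.6% and 5.65%). In PT against MT it was 85 and 90 (13.6% and 14.4%, background 15% and 12.7%). These splits depended on the scaling, since quantile normalization gave 57 and 50 in CL and 74 and 83 in PL against ML, and a common median gave 49 and 63 in CL against ML and 67 and 52 in CT against MT. Rin2, a GEF for Rab5, had 4.80 and 4.68 in CL, against 3.39 and 2.92 in ML at chr2:145804557-145805058, and rose by 1.58 ± 0.18 in CL and 1.74 ± 0.18 in PL against ML. Rabgap1l, a GAP, held 3.85 and 3.70 in CL, against 1.09 and 1.15 in ML at chr1:160369992-160370493, a rise of 2.65 ± 0.33. Rims3, of the Rim family of Rab3 effectors, held 4.88 and 4.85 in CT, against 1.72 and 2.36 in MT at chr4:120882129-120882630, a rise of 2.82 ± 0.22. Tbc1d1, a GAP of glucose transporter traffic, held 3.79 and 3.44 in PT, against 5.22 and 5.19 in MT at chr5:64337056-64337557 and fell, with a difference of -1.59 ± 0.17. These counts, too, moved with single libraries. The 180 calls in MC became 111 when MC replicate 2 was left out, and the 153 in ML became 82 or 95 when ML replicate 1 or 2 was, and 100 or 79 when MM replicate 1 or 2 was. All comparisons of this list apart from MP against MM had such a library. The 39 in MT became 25 or 23 when MT replicate 1 or 2 was left out, and 24 when MM replicate 2 was. In CL against ML, 119 calls became 50 or 66 when CL replicate 1 or 2 was left out, and 50 or 62 when ML replicate 1 or 2 was. In PL against ML, 156 became 88 or 83 when PL replicate 1 or 2 was left out, and 75 or 79 when ML replicate 1 or 2 was. In CT against MT, 121 became 77 or 64 when CT replicate 1 or 2 was left out, and 77 or 69 when MT replicate 1 or 2 was, and in PT against MT 175 became 91 when MT replicate 1 was.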

How the data were processed

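ATAC-seq was measured in 18 libraries of mouse bone marrow-derived macrophages, 2 for each of 9 groups. Per the submitters' processing notes, reads were processed on build mm10 (GRCm38) with tools that included Bowtie2 (version 2.2.5), SAMtools (1.9), MACS3 (3.0.0b1), Picard and featureCounts, whose settings are not given in the sources used here. The values deposited by the authors were log2 CPM per region. All values returned whole reads within 0.01 with a mean prior of 3 reads, and 0 reads stood at -0.70, so differences at regions with few reads are understated. Effective library sizes ran from 3196806 to 5982866.

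Regions were assigned to the protein-coding gene with the nearest body within 50 kb (RefSeq positions, GRCm38.p6). Limma 3.58.1 (R 4.3.3) fitted 9 group means to 17 samples, the MP libraries being averaged, with a variance trend, 8 residual and 26.64 prior degrees of freedom, and no filter. P-values were adjusted over 53796 regions by Benjamini and Hochberg. The median SE of a difference was 0.208, and 0.254 against MP. In reads simulated with a dispersion of 0.01 for MC against MM, the fit recovered 8%, 62%, 100% and 100% of log2 changes of 0.5, 1, 2 and 3 (53796 regions, 200 changed), with 9 other calls. For MP against MM, with the MP libraries as 1 sample, it recovered 0%, 34%, 98% and 100%, with 0 other calls. Fewer changes were thus detectable in MP than in MC.

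The Rab genes, role lists and comparisons were chosen with earlier results of these data known. Named Rab regions were, per comparison, the called regions with non-overlapping groups that moved most, 5 up and 5 down, 1 per gene and direction, then per role list the region with the smallest p and that with the highest level, then Rab7, Rab5a, Rab11a, Rab27a, Rab20 and Rab32. Regulators and effectors were named by the 3 smallest p per comparison, 1 region per gene, and the text names a subset. Exceptions are stated there. The labels' replicate numbers showed no pairing, so no block was used. Alternatives were quantile normalization, another variance model, low-level filters, voom on recovered reads, a fit of the compared groups alone, the 2 MP libraries as 2 samples, other gene assignments, a block for the replicate number, and leaving out each library in turn. Regions near other genes were used for the background only, and 8 regions that overlap a Rab gene were assigned to another gene that they also overlap.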

Additional observations from a re-analysis of the deposited data

How the results depend on the processing

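Counts were compared for called regions at Rab genes and at their regulators and effectors. Under the alternatives that kept all libraries, 254 of 275 counts stayed within 1.5 times of those reported. Counts moved beyond that range more often when a library was left out. No called region changed its direction under any of these alternatives or without any single library. With 22 calls in place of 39, quantile normalization lowered the count of regulator and effector regions in MT against MM, and it raised CL against PL to 23 from 11. Dropping the regions under the 25th percentile of the level gave 7 calls in CL against PL, 2 in MC against ML and 79 of the regulator and effector regions in CL against ML, with fewer regions tested. Without the variance trend, CL against PL had 7 calls and ML against MT 4. With the MP libraries as 2 samples MC against MP had 37 calls, and voom gave it 37, MC against ML 11 and the CpG difference of differences 1. With only the compared groups in the fit, CL against ML had 51 calls, CL against PL 25, MC against MP 31, MC against ML 38, ML against MT 17, the CpG difference of differences 4, PT against MT 26 (85 of the regulator and effector regions) and CT against PT 33. Except where stated, the cause was not tested. Same-numbered libraries of different groups did not deviate together (correlations of -0.358 to 0.242 over 36 pairs of groups, 5 above 0.1), and with the replicate number as a block and the MP libraries as 2 samples the Rab counts were 36 in MC against MP and 49 in MC against MM.

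Without 1 library, Rab calls ranged over 32 to 34 in MC against MM, 33 to 40 in ML, 32 to 46 in MP and 11 to 12 in MT. They ranged over 7 to 18 in CL against ML, 16 to 24 in PL against ML, 14 to 23 in CT against MT, 29 to 78 in PT against MT, 1 to 6 in CL against PL, 24 to 101 in CT against PT, 11 to 23 in MC against MP, 1 to 4 in MC against ML, 1 to 8 in ML against MT, 0 to 1 for the CpG difference of differences and 0 to 2 for polyI:C. Regulator and effector regions ranged over 111 to 136 in MC, 79 to 100 in ML, 111 to 153 in MP and 23 to 30 in MT against MM, and over 50 to 66 in CL against ML, 75 to 88 in PL against ML, 64 to 77 in CT against MT and 91 to 215 in PT against MT. A group left with 1 library is assumed to vary like the others. There were 2 libraries a group and 43 to 89.5 reads in the median Rab region. In the simulated reads, where 200 of 53796 regions changed, log2 changes of 0.5 were mostly not recovered. In the data 17.2% of all regions were called higher in MC against MM, so the simulated share need not hold there. Some smaller differences were called, such as 0.34 at a Rab30 region in MC against MM, a call lost under several alternatives.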
